A study of Homo sapiens with 24 samples.

Results

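The genes described here encode the Polycomb repressive complex 2 (PRC2) and the proteins most often bound to it. They are PHF19, PHF1, MTF2, EZH1, EZH2, EED, SUZ12, JARID2, RBBP4 and RBBP7. They were chosen by symbol, as the transcript clusters (the probe sets that stand for 1 transcript locus each) whose single gene symbol is a listed one. All 10 genes were found, with 1 cluster each, among 18417 genes with such a cluster. PHF19 was selected because its fall after p52/RelB knockdown was already known to be among the largest there, and the others because they belong to the same complex. Values from p52/RelB KD are therefore given for these 10 genes as a description, with no test and no call.

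The cells were L1236, a Hodgkin lymphoma line that derives from a B cell, and their mRNA was read on 24 arrays (Affymetrix Human Gene 1.0 ST) in 2 experiments. In the first, p50/RelA knockdown (KD) cells received siRNAs against NFKB1 (1 µM, 3 days) and RELA (500 nM, 2 days), and were set against cells given non-targeting siRNA, named control 1. In the second, p52/RelB KD cells received siRNAs against NFKB2 (500 nM, 2 days) and RELB (1 µM, 3 days), and were set against control 2. All cells, controls included, took up Accell siRNA passively in low serum and were back in normal medium for 1 day before harvest. Each arm held 6 arrays, since every one of 3 replicates was run with 2 siRNA sequences, and the 2 experiments share no control array.

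PRC2 places methyl groups on lysine 27 of histone H3, a mark of silenced genes. EZH2 or EZH1 carries the catalytic activity, EED reads the mark and stimulates the enzyme, SUZ12 holds the complex together, and RBBP4 and RBBP7 bind histones. PHF1, MTF2 and PHF19 are the 3 Polycomb-like proteins, which bind chromatin through a Tudor domain and bring PRC2 to it, while JARID2 belongs to a different form of the complex. EZH2 is well known in B cells, where it is abundant in the germinal centre.

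The siRNAs decide what was removed from these cells, and each arm used a pair of them per target, so the sequences of the study's list are shown in its order. The sources used here do not say which of each pair is the one labelled sequence 1.

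NFKB1, first listed: ccaaaguauaaagauauua
NFKB1, second listed: ggcucauguuuacagcuuu
RELA, first listed: cuuccaaguuccuauagaa
RELA, second listed: ggauugaggagaaacguaa
NFKB2, first listed: ucauugagcagauagucua
NFKB2, second listed: cugucaagaucuguaacua
RELB, first listed: guaggauucggaaaagauu
RELB, second listed: uggagaucaucgacgagua

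Each sequence has 19 bases. The 2 sequences of a target have at most 5 bases in a row in common on either strand.

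The targeted mRNAs fell unequally. NFKB1 was at 26.5% and RELA at 38.1% of control 1 in p50/RelA KD, while NFKB2 was at 39.4% and RELB at 82% of control 2 in p52/RelB KD. In p50/RelA KD the log2 level of NFKB1 in replicates 1, 2 and 3 was 9.28, 8.91 and 9.03 with sequence 1. With sequence 2 it was 9.12, 9.68 and 9.66. RELA was at 8.46, 8.35 and 8.13 with sequence 1 and at 8.35, 8.81 and 8.63 with sequence 2. Both were thus lower with sequence 1 in replicates 2 and 3, and lower with sequence 2 in replicate 1. NF-κB subunits that were not targeted changed as well by limma. NFKB2 was called lower in p50/RelA KD (87.8% of control 1), REL was called lower in p52/RelB KD (67.5% of control 2) and NFKB1 higher there (111%). The values are log2 levels from RMA, a method that makes arrays comparable and combines the probes of a cluster. Array medians lay between 6.94 and 6.99 in the first experiment and between 7.39 and 7.51 in the second, so levels were compared within an experiment only. The array of p52/RelB KD replicate 3 with sequence 2 stood apart, with the highest median (7.51) and the lowest mean correlation with its arm (0.986, against 0.993 to 0.997 on the other arrays of that experiment). For genes of p52/RelB KD named below, the difference without this array is added where it moved by over 1.5 times or where a call changed. Without it 1153 of 16115 clusters were called lower and 1156 higher, against 926 and 633 of 16101 with it. Calls over all clusters were thus more frequent without it. Of 8 tested Hodgkin and B lineage markers, 1 was called in p50/RelA KD, where 1.07% of all clusters were. It was the chemokine CCL17 (8.62 in KD and 9.06 in control 1). CD22, a B cell surface receptor, was called lower in p52/RelB KD (8.45 in KD and 8.75 in control 2), where 5.75% of all clusters were. The B cell factor PAX5 was called higher (11.14 in KD and 10.95 in control 2), where 3.93% were. Without the array that stood apart CD30 (TNFRSF8) was called lower too (-0.15 ± 0.03). A cluster was left out under a log2 level of 6. Of 8 T and NK cell markers, 2 were at or above 6 in either arm of the first experiment. In the second, where array medians were higher as well, 6 were. CD7 and NKG7 had the highest levels, 9.08 and 8.21 in p52/RelB KD and 8.98 and 8.01 in control 2. CD7 differed by 0.10 ± 0.07 and NKG7, the most of this list, by 0.20 ± 0.10. Without that array these were 0.02 ± 0.03 and 0.09 ± 0.04. CD3E, a T cell gene, averaged 6.27 in p52/RelB KD and 6.18 in control 2. Its difference was 0.09 ± 0.08, or 0.03 ± 0.06 without that array. Of the tested T and NK cell markers 0 were called in either experiment (0 at an unadjusted p below 0.05). Myeloid, fibroblast, endothelial and epithelial markers were looked at too, and 0 of these were called in p50/RelA KD. In p52/RelB KD a cluster of PECAM1, an endothelial marker, was called higher (12.15 in KD and 11.95 in control 2). The other PECAM1 cluster was lower in KD (5.58, against 5.91 in control 2), at levels too low to be tested. Without that array ITGAM, a myeloid marker, was called higher too (0.14 ± 0.04). The part of these changes in the results below was not tested.

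PHF19 fell in p50/RelA KD, to 80.6% of control 1, and none of the other 9 PRC2 genes was called there. Its mRNA was at 51.3% of control 2 in p52/RelB KD, by which it was picked. A cluster was called when limma's adjusted p, over all clusters tested, was below 0.05 and the difference was at least 10%. Of the 10 PRC2 genes 1 was called in p50/RelA KD, where calls made up 1.07% of 14672 clusters. Calls made up 9.68% of 16101 clusters in p52/RelB KD and are used below for genes other than the 10.

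In p50/RelA KD, PHF19 measured 10.52 and 10.47 in replicate 1, 10.40 and 10.50 in replicate 2, and 10.49 and 10.58 in replicate 3, with sequence 1 named first. In control 1 it measured 10.68 and 10.76, 10.94 and 10.85, and 10.85 and 10.73 in the same order. Every KD array lay below every control array. The difference was -0.31 ± 0.05 (SE, as in the differences that follow, n = 6 arrays per arm) on the log2 scale, with a 95% interval of -0.41 to -0.21 and an adjusted p of 0.00645 in limma. It was the 51st lowest of the 14672 differences. RNA came from whole cultures, so fewer cells with PHF19 mRNA and less of it per cell cannot be told apart. The exact permutation test of the arm labels within replicates, two-sided and added after the data were seen, gave p = 0.00926, the smallest that its 216 arrangements can give.

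The fall of PHF19 in p50/RelA KD was seen in every replicate and with both sequences, but its call needed all 3 replicates. By replicate, each with a scan date of its own, the difference was -0.23, -0.44 and -0.26, and by sequence it was -0.36 and -0.27. Leaving out replicate 1, 2 or 3 gave differences of -0.35, -0.24 and -0.34 and adjusted p of 0.0778, 0.104 and 0.0601, so the call was lost each time. It was also lost with the 2 sequences of a replicate averaged (adjusted p = 0.0641) and with sequence 1 or 2 alone (0.149 and 1). The call was kept without any 1 of the 12 arrays, with adjusted p of 0.0044 to 0.026.

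In p52/RelB KD, PHF19 measured 9.82 and 9.71, 9.81 and 9.94, and 9.92 and 9.74 in replicates 1, 2 and 3. In control 2 it measured 10.60 and 10.71, 10.81 and 10.90, and 10.78 and 10.92. The highest KD array lay 0.66 below the lowest control array, with no overlap. The difference was -0.96 ± 0.05 (SE, n = 6 per arm), the eighth lowest of the 16101 differences. PHF19 was picked by this contrast, so the gap, the difference and the rank restate that choice. By replicate it was -0.89, -0.98 and -1.02, and by sequence -0.88 and -1.05. Replicates 1 and 2 shared a scan date and replicate 3 had another. The 2 knockdowns lowered the targets to different degrees and were normalized apart, so their PHF19 differences stand side by side here and the gap between them was not tested.

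**Figure D1:**
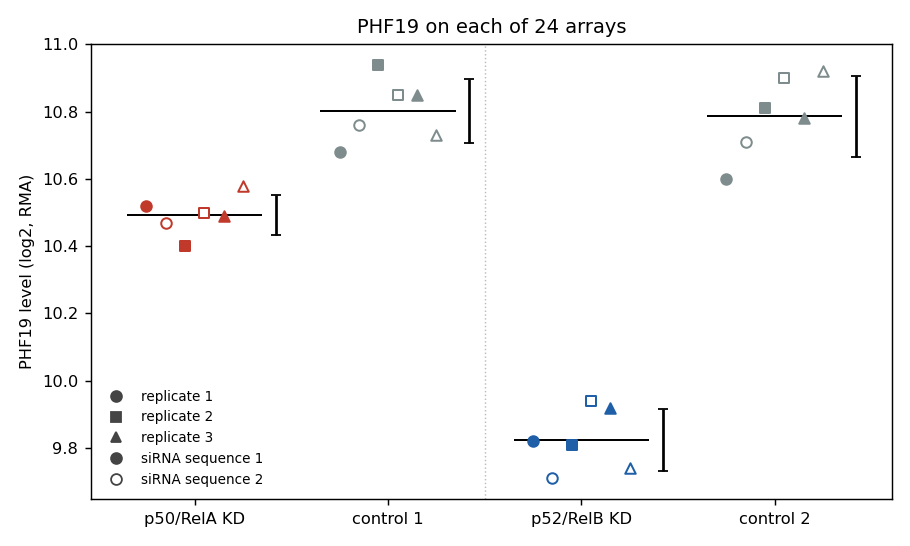
PHF19 level (log2, RMA) on each array of the 4 arms. Marker shape gives the replicate, filled and open markers siRNA sequence 1 and 2, horizontal lines the arm mean, and bars the SD over 6 arrays. KD arrays lie at 10.40 to 10.58 against 10.68 to 10.94 in control 1, and at 9.71 to 9.94 against 10.60 to 10.92 in control 2.

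PHF19 was not called between the 2 siRNA sequences in any arm. In p50/RelA KD the means were 10.47 with sequence 1 and 10.51 with sequence 2, a difference of -0.05 ± 0.07 (SE, n = 3 per sequence, limma adjusted p = 0.999). In p52/RelB KD they were 9.85 and 9.80, a difference of 0.05 ± 0.07. Sequence 1 was at 10.82 and sequence 2 at 10.78 in control 1, a difference of 0.04 ± 0.07. In control 2 sequence 1 was at 10.73 and sequence 2 at 10.84, a difference of -0.11 ± 0.07. Of the 10 PRC2 genes 0 were called between sequences in any of the 4 arms, where 0% of all clusters were called with limma, and 0 of the 10 had an unadjusted p below 0.05. Across all clusters 514 had such a p in p50/RelA KD, 333 in control 1, 1536 in p52/RelB KD and 160 in control 2.

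The closest relatives of PHF19 were not called in p50/RelA KD. PHF1 and MTF2 occupy the same place on SUZ12 as PHF19. PHF1 had its lowest, median and highest array at 9.31, 9.43 and 9.51 in p50/RelA KD, against 9.37, 9.40 and 9.50 in control 1. The difference was 0.00 ± 0.04 (adjusted p = 0.99, 95% interval -0.07 to 0.08). After p52/RelB KD PHF1 was at 9.35, 9.40 and 9.52, against 9.31, 9.35 and 9.48 in control 2, a difference of 0.04 ± 0.04, or 0.02 ± 0.03 without the array that stood apart. The arms of PHF1 overlap over most of their range in both experiments. MTF2 was at 9.50, 9.56 and 9.65 in p50/RelA KD, against 9.42, 9.51 and 9.72 in control 1, a difference of 0.02 ± 0.04 (adjusted p = 0.926, 95% interval -0.07 to 0.12). With NFKB2 and RELB targeted, it was at 9.58, 9.65 and 9.89, against 9.56, 9.59 and 9.83 in control 2, a difference of 0.02 ± 0.05, or 0.07 ± 0.03 without that array. MTF2 varied more with the replicate than with the knockdown, since in the second experiment its control 2 arrays averaged 9.59, 9.56 and 9.83 in replicates 1, 2 and 3.

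After p50/RelA KD the contrast between PHF19 and its relatives was tested directly. The log2 value of PHF19 minus that of MTF2 on the same array was 0.34 lower in KD than in control 1 and that of PHF19 minus PHF1 was 0.31 lower. Both gave p = 0.00926 in the exact two-sided permutation test within replicates, again the smallest possible, in tests added after the data were seen. PHF19 alone gave the same p, and MTF2 and PHF1 differed by 0.02 and 0.00. These 2 tests therefore add little to that of PHF19.

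**Figure D2:**
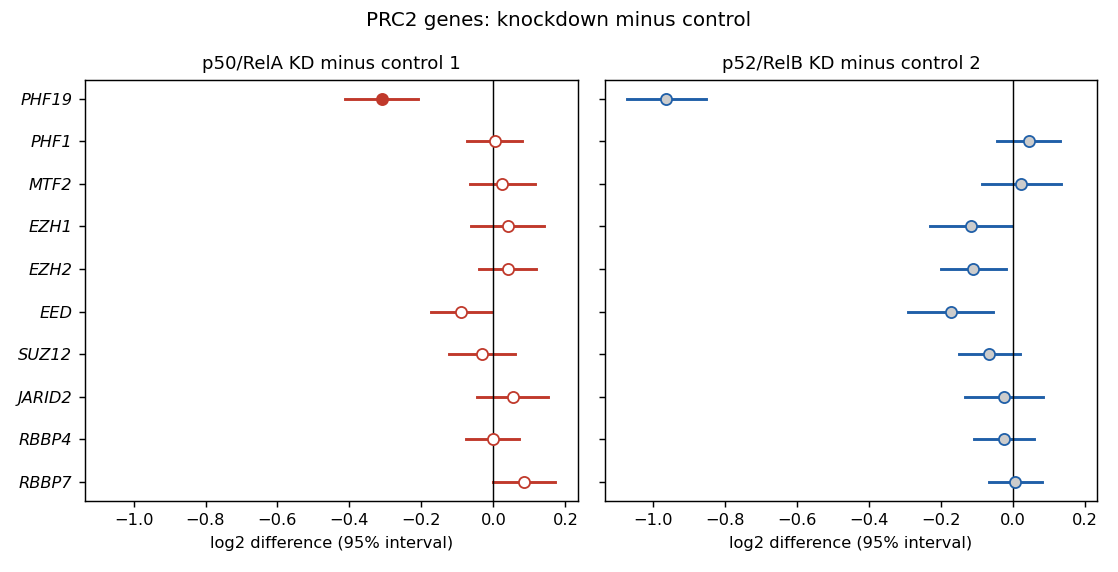
Difference between KD and control (log2) of each PRC2 gene in p50/RelA KD, left, and p52/RelB KD, right, with limma's 95% interval. On the left the filled point was called and open points were not, and grey points on the right carry no call. Intervals on the right describe the spread between arrays and test nothing. PHF19 is at -0.31 and -0.96, and the other 9 genes lie between -0.09 and 0.09 on the left and between -0.17 and 0.04 on the right.

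The catalytic subunits were not called in p50/RelA KD. EZH2 was at 10.41, 10.50 and 10.66 in p50/RelA KD (lowest, median and highest array), against 10.35, 10.49 and 10.59 in control 1, a difference of 0.04 ± 0.04 (adjusted p = 0.823, 95% interval -0.04 to 0.12). In cells with p52/RelB KD it was at 10.55, 10.63 and 10.72, against 10.58, 10.77 and 10.85 in control 2, a difference of -0.11 ± 0.04. KD and control arrays overlap in both, and 5 of the 6 pairs of the second experiment matched by replicate and sequence number were lower in KD. The KD and control siRNAs of a pair have only that number in common. EZH1, the paralogue that prevails in resting cells, was at 8.99, 9.15 and 9.27 in p50/RelA KD, against 9.03, 9.12 and 9.17 in control 1, a difference of 0.04 ± 0.05 (adjusted p = 0.876). In p52/RelB KD it was at 9.04, 9.31 and 9.41, against 9.34, 9.41 and 9.45 in control 2, a difference of -0.12 ± 0.05. The lowest of these values, 9.04, belonged to the array that stood apart, and without it the EZH1 difference was -0.07 ± 0.03.

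EED had the largest difference among the PRC2 genes other than PHF19. In p50/RelA KD it measured 9.40, 9.37, 9.49, 9.64, 9.48 and 9.33, against 9.49, 9.43, 9.64, 9.68, 9.49 and 9.52 in control 1, in the order of replicates and, within them, sequences. All 6 pairs matched by replicate and sequence number were lower in KD, by 0.01 to 0.19. Such a pair shares the replicate, but its siRNAs share only a number. In replicate 2 the KD array of sequence 2 and the control array of sequence 1 were both at 9.64. By replicate the difference was -0.07, -0.10 and -0.10, and in limma it was -0.09 ± 0.04 (adjusted p = 0.419, 95% interval -0.17 to -0.01). After p52/RelB KD it measured 9.65, 9.68, 9.63, 9.58, 9.57 and 9.28, against 9.77, 9.76, 9.66, 9.80, 9.74 and 9.70 in control 2. Here too all 6 pairs were lower in KD, though the highest KD array (9.68) overlaps the lowest control array (9.66). The difference was -0.17 ± 0.05, and without the array that stood apart it was -0.12 ± 0.03.

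SUZ12 and JARID2 were not called in p50/RelA KD. SUZ12 was at 11.62, 11.67 and 11.79 in p50/RelA KD, against 11.62, 11.73 and 11.83 in control 1, a difference of -0.03 ± 0.04 (adjusted p = 0.895). With NFKB2 and RELB targeted, it was at 11.67, 11.78 and 11.81, against 11.77, 11.84 and 11.88 in control 2, a difference of -0.07 ± 0.04, or -0.04 ± 0.03 without the array that stood apart, which held the lowest value. JARID2 was at 8.81, 8.96 and 9.02 in p50/RelA KD, against 8.80, 8.87 and 8.98 in control 1, a difference of 0.05 ± 0.05 (adjusted p = 0.80). It had the widest spread between control 2 replicates of the 10 genes, with means of 9.26, 9.07 and 8.89. Its p52/RelB KD means were 9.06, 9.11 and 8.97, so the difference by replicate was -0.20, 0.04 and 0.08 and the overall one -0.03 ± 0.05.

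The histone-binding subunits were not called in p50/RelA KD. RBBP4 was at 12.24, 12.27 and 12.37 in p50/RelA KD, against 12.24, 12.28 and 12.39 in control 1, a difference of 0.00 ± 0.03 (adjusted p = 0.992). In cells with p52/RelB KD it was at 12.22, 12.27 and 12.37, against 12.26, 12.28 and 12.39 in control 2, a difference of -0.03 ± 0.04, or 0.00 ± 0.03 without the array that stood apart. RBBP7 differed by 0.09 ± 0.04 in p50/RelA KD (adjusted p = 0.475), with arrays at 11.81, 11.87 and 12.03 against 11.75, 11.82 and 11.83 in control 1. In p52/RelB KD the RBBP7 difference was 0.01 ± 0.03, or 0.00 ± 0.03 without that array, and its control 2 replicate means lay within 0.01 of each other. Both proteins also serve in other histone complexes, so their mRNAs are not a measure of PRC2 alone.

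Of the 9 genes other than PHF19, 0 were called in p50/RelA KD with limma and 1 had an unadjusted p below 0.05, as 10.5% of all clusters did. Their median difference was 0.02 in p50/RelA KD, against 0.00 over all clusters tested, and -0.03 in p52/RelB KD, against 0.02. KD and control arrays separated for 0 of the 9 in either experiment, where they did for 1.11% of all clusters in p50/RelA KD and 5.27% in p52/RelB KD. The widest ends of their 95% intervals were -0.17 and 0.17 in p50/RelA KD and -0.29 and 0.13 in p52/RelB KD. The intervals thus leave room for differences of up to these sizes in a single gene.

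**Figure D3:**
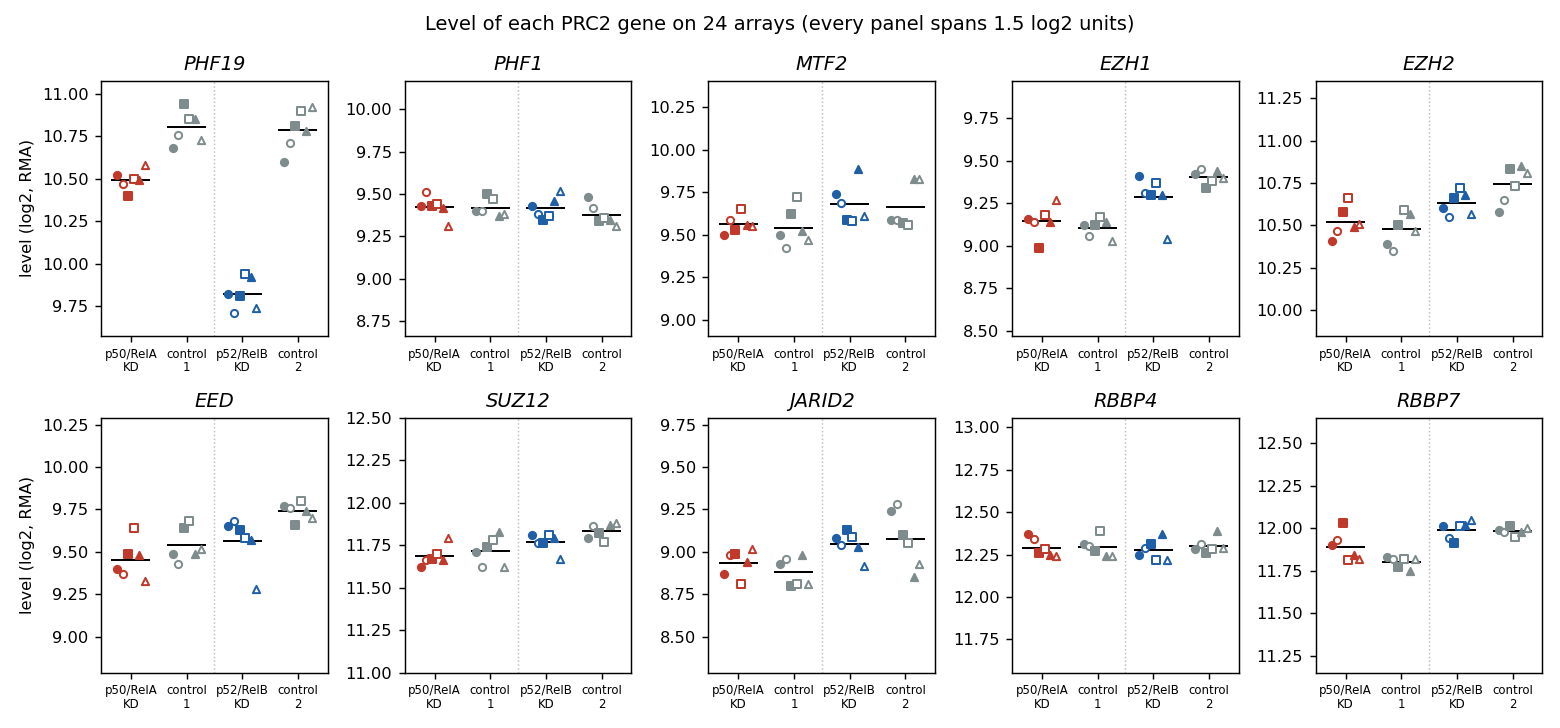
Level (log2, RMA) of each PRC2 gene on all 24 arrays, with every panel spanning the same 1.5 log2 units. Marker shapes are replicates 1 (circle), 2 (square) and 3 (triangle), filled for siRNA sequence 1 and open for sequence 2, and lines are arm means. KD and control separate for PHF19 and overlap for the other 9 genes, and the open triangle at 9.28 for EED is the p52/RelB KD array that stood apart.

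The PHF19 cluster stands for the whole locus. It lists 5 RefSeq mRNAs, so long and short forms of PHF19, which are known to differ in the domains they carry, cannot be told apart. RefSeq's promoter windows (GRCh38.p14, 250 bases before to 50 after each annotated start) hold 2 starts for PHF19. The 250 bases before the outer start lie at chr9:120877189-120877438 on the minus strand and are shown because they carry a match to 1 of the motifs searched. Capitals mark the E2F site TTTCCCGC, read here on the opposite strand, 152 bases before the start.

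PHF19, outer start: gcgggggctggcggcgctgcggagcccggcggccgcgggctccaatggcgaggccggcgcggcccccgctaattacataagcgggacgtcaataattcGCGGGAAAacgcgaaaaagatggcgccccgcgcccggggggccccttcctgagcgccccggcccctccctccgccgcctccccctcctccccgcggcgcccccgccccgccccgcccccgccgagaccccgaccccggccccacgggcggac

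Both strands of all 35116 windows were searched for the kappaB consensus, to which NF-κB dimers bind, and for the E2F sites TTTCCCGC and TTTGGCGC. All 10 PRC2 genes matched, with 15 windows. The kappaB consensus was in 5.91% of all windows and in 1 window of the PRC2 genes, that of PHF1, while these letters were in neither PHF19 window. TTTCCCGC was in 1.63% of all windows and in windows of PHF19, MTF2 and SUZ12, and TTTGGCGC in 0.652% and in a window of EZH2. A match in a window is a run of letters and not a measured binding site. Bases outside the windows were not searched, so a window without a match does not speak for the whole gene. The study mapped p50, p52, RelA and RelB binding in L1236 cells by ChIP-seq and found many p50 and p52 regions in introns. Those regions were not used here.

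The neighbours of PHF19 on chromosome 9 were looked at because 1 of them, TRAF1, is a well known NF-κB target whose annotated span overlaps that of PHF19. Probe positions were not used here, and whether the 2 clusters share signal was not tested. TRAF1, an adaptor of TNF receptor signalling, was at 6.39, 6.54 and 6.56 in p50/RelA KD, against 6.58, 6.65 and 6.84 in control 1, with no overlap. The difference was -0.16 ± 0.04 and was not called (adjusted p = 0.143). After p52/RelB KD TRAF1 was at 6.79, 6.90 and 7.18, against 7.07, 7.15 and 7.30 in control 2. It was called lower, with a difference of -0.23 ± 0.06. The KD value of 7.18 was that of the array that stood apart, and without it the TRAF1 difference was -0.29 ± 0.04. PSMD5, a chaperone of proteasome assembly on the other side, was at 10.68, 10.82 and 10.84 in p50/RelA KD, against 10.65, 10.77 and 10.88 in control 1. Its differences were 0.03 ± 0.05 and, in p52/RelB KD, 0.13 ± 0.06, neither called. C5, the complement component, had too low a level to be tested, with medians of 5.04 in p50/RelA KD and 5.08 in control 1, and no cluster carried the symbol of B3GALT9.

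The rest of the Polycomb system was described through lists. Of 5 further PRC2 partners, among them AEBP2, a cofactor, and EPOP, an elongin-binding subunit, 0 were called in either knockdown with limma, with 1 at an unadjusted p below 0.05 in each, as 22.8% of all clusters were in p52/RelB KD. LCORL had the largest difference of this list in both, 0.11 ± 0.06 in p50/RelA KD and -0.17 ± 0.10 in p52/RelB KD. Without the array that stood apart LCORL differed by -0.06 ± 0.03 and EPOP by more, -0.11 ± 0.04. The list's median was -0.02 in p50/RelA KD and -0.09 in p52/RelB KD (-0.06 without that array), where the medians over all clusters were 0.00 and 0.02 (0.01 without it).

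PRC1, the complex that ubiquitinates histone H2A, had 0 of its 20 tested genes called in p50/RelA KD (1 cluster at an unadjusted p below 0.05), where CBX7, a reader of the PRC2 mark, differed most (0.17 ± 0.05, adjusted p = 0.208). With NFKB2 and RELB targeted, 3 of 20 were lower and 0 higher, where 5.75% of all clusters were called lower and 3.93% higher. They were PHC1, a subunit that joins PRC1 complexes (2 clusters, each -0.14 ± 0.03), PCGF2, a RING finger subunit (9.74 in KD and 9.91 in control 2), and RYBP, a subunit of variant PRC1 (10.89 in KD and 11.07 in control 2). The 2 PHC1 clusters gave nearly the same levels, 9.68 and 9.66 in KD, and may not be separate measurements. SCML2 had the largest difference of this list in p52/RelB KD, -0.20 ± 0.09, and was not called. Without the array that stood apart SCML2 differed by -0.11 ± 0.04, less than PCGF2 (-0.17 ± 0.04), and the same 3 genes were called. PHC1 was then called through 1 of its 2 clusters (-0.1379), and the other (-0.1371) fell short of a 10% difference.

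Of 10 tested genes of the PR-DUB complex, which removes the PRC1 mark, and of the H3K27 demethylases, 0 were called in p50/RelA KD (1 at an unadjusted p below 0.05). KDM6B, which removes the PRC2 mark, differed most there (-0.12 ± 0.05, adjusted p = 0.331). In cells with p52/RelB KD 2 were lower, where 5.75% of all clusters were. They were ASXL1 (9.93 in KD and 10.18 in control 2, -0.25 ± 0.04) and MBD6 (-0.17 ± 0.04), both parts of PR-DUB. Without the array that stood apart KDM6B was called lower as well, 3 of 11, where 1153 of 16115 clusters were.

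Tudor domains of the Polycomb-like proteins bind methylated H3K36, so its writers and erasers formed a further list. After p50/RelA KD 0 of 9 were called (1 at an unadjusted p below 0.05), and SETD2, the H3K36 trimethylase, differed most (0.12 ± 0.05, adjusted p = 0.378). Under p52/RelB KD 3 of 9 were lower, where 5.75% of all clusters were, and all 3 were KDM4 demethylases. KDM4A was at 9.51 in KD and 9.68 in control 2, KDM4B at 8.68 in KD and 8.91 in control 2, and KDM4C at 9.52 in KD and 9.71 in control 2. The list's median was -0.08, against 0.02 over all clusters. Without the array that stood apart the same 3 genes were called, and the median was -0.05, against 0.01. Of 18 genes of the other RBBP4 and RBBP7 complexes 0 were called in either knockdown. At an unadjusted p below 0.05 were 1 and 7, as 10.5% and 22.8% of all clusters were. SAP30, a SIN3 subunit, was called lower without the array that stood apart, where 1153 of 16115 clusters were.

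Genes known from textbooks as Polycomb targets moved in both directions. In p50/RelA KD 1 of 16 was called lower, where 0.825% of all clusters were, and 1 higher, where 0.245% were. CDKN1A, which encodes the cell cycle inhibitor p21, was at 9.04 in KD and 9.37 in control 1 (-0.33 ± 0.04, adjusted p = 0.000626). HOXD10, a homeobox gene, was at 10.86 in KD and 10.63 in control 1 (0.23 ± 0.04, adjusted p = 0.00897). After p52/RelB KD 4 were lower, where 5.75% of all clusters were, and 1 higher, where 3.93% were. CDKN1A was at 9.55 in KD and 9.82 in control 2, PRDM1, the plasma cell regulator, at 7.27 in KD and 7.66 in control 2. PAX6, an eye and brain factor, was at 6.97 in KD and 7.32 in control 2, and GATA3, a T cell factor, at 11.20 in KD and 11.43 in control 2. CDKN2B, which encodes the inhibitor p15, was higher, at 8.99 in KD and 8.73 in control 2. Without the array that stood apart CDKN2A was called higher too, where 1156 of 16115 clusters were. CDKN1A is also known as a target of p53, and the list does not measure the histone mark.

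Several PRC2 genes are known as E2F targets in dividing cells, so E2F and cell cycle genes were set beside them. Of 15, 0 were called in p50/RelA KD (1 at an unadjusted p below 0.05), where CCNB1, the mitotic cyclin, differed most (0.10 ± 0.06, adjusted p = 0.592). With NFKB2 and RELB targeted, 1 was higher, where 3.93% of all clusters were, and 0 lower, where 5.75% were. The higher one was E2F1, at 10.20 in KD and 10.02 in control 2. Without the array that stood apart CCNE2 and E2F2 were called higher as well, where 1156 of 16115 clusters were.

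**Figure D4:**
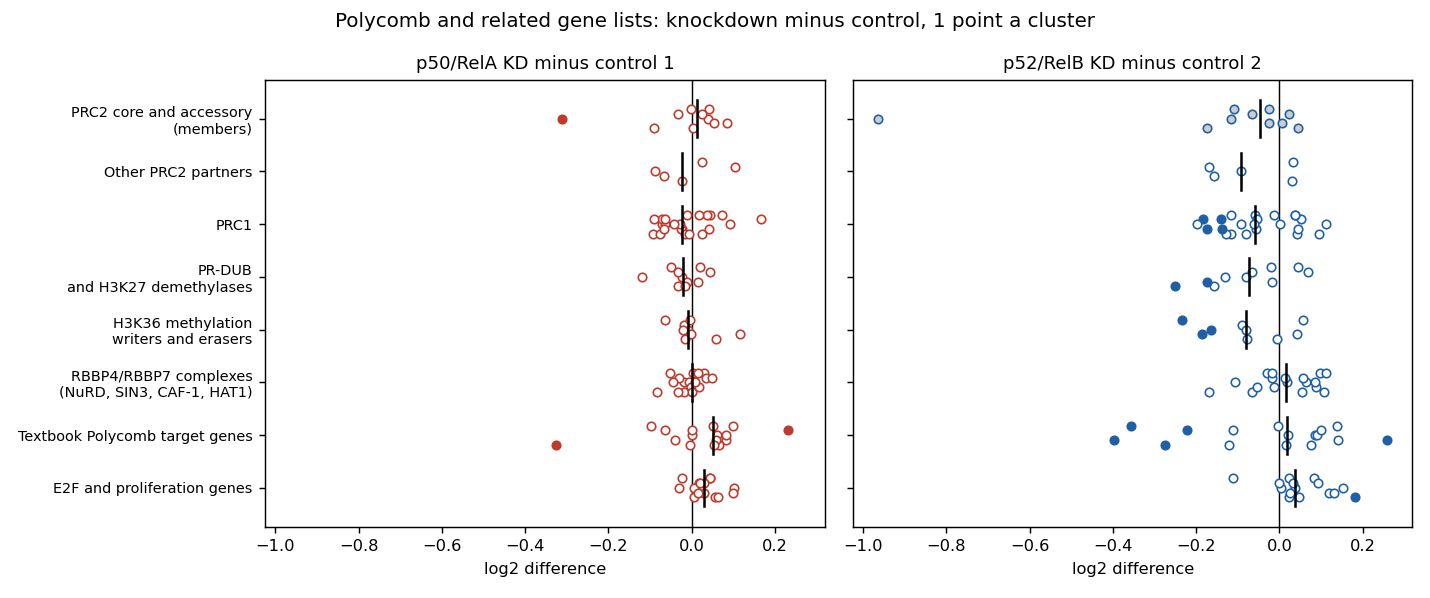
Differences between KD and control (log2) of the clusters of each list in p50/RelA KD, left, and p52/RelB KD, right. Filled points were called, open points were not, grey points (PRC2 genes on the right) carry no call, and black bars are list medians. PHF19 is the point at -0.96 on the right, away from the others, and on the left it lies at -0.31 beside CDKN1A at -0.33.

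Among the genes whose pattern was most like that of PHF19 over the 12 arrays of the second experiment, after centring each replicate, were P2RX4, an ATP-gated channel (Pearson r = 0.99), CAMK1D, a calmodulin-dependent kinase (0.99), AHNAK, a large scaffold protein (0.989), and TNFAIP6, a hyaluronan-binding protein induced by TNF (0.988). Over the 12 arrays of the first experiment their r was 0.837, 0.828, 0.583 and 0.869. The most opposite were H3C1, a histone H3 gene (-0.994 and, in the first experiment, -0.749), ZBTB38 (-0.993 and -0.266) and PTGER4, a prostaglandin receptor (-0.981 and -0.517). All these arrays share 2 arms, so such values mostly restate the difference between KD and control and are given as a description. TNFAIP6 was also called lower in p50/RelA KD, with a difference of -0.48 ± 0.05. The other PRC2 genes had r with PHF19 between -0.47 and 0.78 in the second experiment, highest for EED and EZH2, and between -0.80 and 0.61 in the first.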

How the data were processed

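Total RNA of L1236 cells was hybridised to Affymetrix Human Gene 1.0 ST arrays. The authors deposited log2 values made with RMA (background correction, quantile normalization, summary per transcript cluster), version not given in the sources used here. RMA compresses large differences, and precision is limited by the number of arrays. Their methods adjust for covariates that are not named. Of 33297 clusters, 19460 had 1 symbol, 1754 several and 12083 none listed. 19429 symbols were updated through the GRCh38.p14 gene table and 31 kept. Clusters below 6 in 50% or more of an experiment's arrays were left out (all 10 PRC2 genes passed in both). limma 3.58.1 (R 4.3.3) was fitted within each experiment across all clusters with replicate as a block and Benjamini-Hochberg adjustment, and tested on simulated data. Same-numbered replicates are the study's biological replicates, and their deviations correlated at 0.195 to 0.574. Separate cultures for the samples of a replicate are not given, so p-values measure the spread between these arrays. Members, lists and named genes (all members, called or largest list genes, 2 neighbours each side, 5 most and 3 least like PHF19, of which 1 is not reported here) were chosen with earlier results of these data known. Alternatives changed the block, filter, normalization, test, sequences, replicates and arrays. Coordinates come from RefSeq windows.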

Additional observations from a re-analysis of the deposited data

Results flagged for a closer look

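Among 40 groups of 6 arrays (10 PRC2 genes in 4 arms), 3 had a lowest array far from the others, measured by its gap over the whole range of the group. Chance alone flags about 1 group in 20. All 3 were the same array, that of p52/RelB KD replicate 3 with sequence 2. EED was at 9.28 there, with the nearest array at 9.57, EZH1 at 9.04 with the nearest at 9.30, and SUZ12 at 11.67 with the nearest at 11.76. PHF19 was at 9.74 on this array, within the range of its arm. The part of array quality in these values was not tested.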

How the results depend on the processing

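PHF19 stayed lower in p50/RelA KD under all alternatives, but was no longer called with the sequences averaged (-0.31, adjusted p = 0.0641), with sequence 1 alone (-0.356, 0.149) or sequence 2 alone (-0.265, 1), or without 1 replicate (-0.351 to -0.244), so 0 PRC2 genes were called there. Fewer arrays or residual degrees of freedom entered these fits. With no replicate block 1 PRC2 gene, PHF19, was called in p50/RelA KD and 0 between sequences, so the block changed no call there. PHF19 was picked by p52/RelB KD, so its calls there test nothing. Arrays of sequence 1 alone gave PHF19 a difference of -0.881 there and those of sequence 2 a difference of -1.05. Of the uncalled genes in p50/RelA KD, MTF2 (-0.0162) and EZH1 (-0.0345) changed sign with sequence 1 alone and SUZ12 (0.044) with sequence 2 alone. RBBP4 changed sign with arrays centred (0.00338), after further quantile normalization (0.00313), with sequence 1 alone (0.0179) and without the control 1 array of replicate 2 with sequence 2 (0.0201) or the KD arrays of replicate 2 with sequence 1 (0.00718) or 2 (0.00255). PHF1 changed sign without the control 1 arrays of replicate 1 (-0.00492 and -0.00494), the KD array of replicate 1 with sequence 2 (-0.015) or that of replicate 3 with sequence 1 (-0.00867). Without 1 replicate PHF1 ranged over -0.0293 to 0.0287, MTF2 over -0.00678 to 0.0762, EZH1 over -0.00136 to 0.0897 and RBBP4 over -0.0282 to 0.0263. All clusters called in p50/RelA KD numbered 157, and 59 with no replicate block, 103 with no filter, 30 and 276 with the methods' t-test on deposited and replicate-adjusted values, 45 with sequences averaged, 37 and 3 with each sequence alone, 18 to 41 without 1 replicate and 75 to 193 without 1 array. In p52/RelB KD they numbered 1559, and 880 with no replicate block, 725 with the t-test on deposited values, 632 with sequences averaged, 5 with sequence 2 alone, 443 to 2047 without 1 replicate and 1127 to 2309 without 1 array, the highest without the array that stood apart, with 1153 lower and 1156 higher.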
